A study of Arabidopsis thaliana with 12 samples.

Results

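The interval of *Arabidopsis* chromosome 4 described here runs from locus AT4G03000 to AT4G08999 and covers the region in which the heterochromatic knob of the short arm and the heterochromatin beside the centromere lie. Its members were chosen by locus number, leaving out AT4G05180. They make up 1102 of the 34133 rows of the expression table and 1032 loci, because 70 loci were listed both as a locus and as an isoform model. Annotated members extend over chr4:1324063-5772949 in TAIR10.1. Neither DNA methylation nor histone marks were analysed here, so a locus number does not say whether a given member is heterochromatic.

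Poly-A RNA was sequenced from 10-day-old seedlings grown on MS medium under long days. There were 3 libraries each of the Columbia wild type (WT), *brat1*, *nrpe1* and the double mutant *brat1nrpe1*. The *brat1* line carries a T-DNA insertion (Salk_012966C, *brat1-1*) in the gene of a bromodomain and ATPase protein, and the *nrpe1* line carries *nrpe1-11*. Each mutation was represented by 1 allele, and whole seedlings were used, so fewer expressing cells and less RNA per cell cannot be told apart.

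Heterochromatin in plants is rich in transposons that DNA methylation keeps silent. NRPE1 is the largest subunit of RNA polymerase V, whose transcripts guide RNA-directed DNA methylation to such sequences. BRAT1 is known as an anti-silencing factor, which helps certain methylated loci to stay transcribed. The 3 mutants thus allow the loci of a transposon-rich interval to be read with RNA-directed DNA methylation impaired, with anti-silencing impaired, or with both. The paper also names other DNA methylation pathways, which these mutations do not target.

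Expression was given as FPKM, fragments scaled by transcript length and by the mapped fragments of the library. A row was called on in a genotype when its FPKM was at least 0.5 in all 3 libraries. Genotypes were compared with limma on log2(FPKM + 0.1), and rows whose difference exceeded 1 in size, at a P below 0.01 before adjustment, were taken as past the threshold. Unless said otherwise, every adjusted p below is the limma value after Benjamini-Hochberg adjustment over all 22645 rows tested. Differences are on the log2(FPKM + 0.1) scale, which understates the change of low rows. Nothing in the labels says that replicates came from separate cultures, so p-values measure the spread between these samples only.

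The targeted genes followed the labels, with transcripts lowered but not absent in the mutants. Below, libraries or genotypes without BRAT1 or NRPE1 are those carrying the mutation, and no protein was measured in these data. BRAT1 stood at 11.0 to 11.4 FPKM in WT and 9.69 to 10.8 in *nrpe1*, against 2.96 to 3.44 in *brat1* and 2.67 to 3.11 in *brat1nrpe1*. NRPE1 stood at 4.14 to 5.01 FPKM in WT and 4.24 to 5.72 in *brat1*, against 1.29 to 1.42 in *nrpe1* and 1.02 to 1.10 in *brat1nrpe1*. Replicate 1 stood apart in every genotype. Its 4 libraries lay above the other 8 in 61 and below them in 61 of the 258 tested members, where 26.0% and 24.5% of all tested rows did so. Among members above 0, replicate 1 libraries held 306 to 338 rows and the others 259 to 286. By the read totals that the study lists, these were also the most deeply sequenced libraries of each genotype, so a row at 0 in the shallower ones is less well measured. FPKM values carry no counts, and no counting interval is given.

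The members that the comparisons turn on are shown here by the stretch around their annotated start, from 250 bases before to 50 after it, because silencing by DNA methylation acts on such stretches. CG pairs are in capitals, and all 4 sequences are written 5′ to 3′ on the strand of the locus (RefSeq, TAIR10.1). The first 2 belong to loci that were higher in *nrpe1* and the last 2 to loci that were lower in the genotypes carrying *brat1*.
AT4G04293, chr4:2076582-2076881, plus strand: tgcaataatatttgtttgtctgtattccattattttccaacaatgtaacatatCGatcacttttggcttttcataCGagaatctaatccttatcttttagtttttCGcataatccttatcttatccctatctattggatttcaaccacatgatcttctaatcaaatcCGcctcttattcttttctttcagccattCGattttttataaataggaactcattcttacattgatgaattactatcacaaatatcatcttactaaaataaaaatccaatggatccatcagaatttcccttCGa
AT4G04223, chr4:2036261-2036560, plus strand: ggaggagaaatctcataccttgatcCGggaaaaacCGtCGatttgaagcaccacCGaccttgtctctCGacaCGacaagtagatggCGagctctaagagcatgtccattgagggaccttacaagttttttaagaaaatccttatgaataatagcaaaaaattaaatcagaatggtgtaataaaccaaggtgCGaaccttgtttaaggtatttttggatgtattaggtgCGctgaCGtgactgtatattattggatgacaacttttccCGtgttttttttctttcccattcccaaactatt
AT4G06701, chr4:3940748-3941047, minus strand: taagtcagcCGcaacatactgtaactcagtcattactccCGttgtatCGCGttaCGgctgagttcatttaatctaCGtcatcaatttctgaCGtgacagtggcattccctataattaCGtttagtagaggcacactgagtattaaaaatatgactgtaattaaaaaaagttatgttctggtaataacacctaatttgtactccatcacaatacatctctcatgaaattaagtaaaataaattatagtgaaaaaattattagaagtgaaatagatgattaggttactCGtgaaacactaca
AT4G07820, chr4:4637401-4637700, minus strand: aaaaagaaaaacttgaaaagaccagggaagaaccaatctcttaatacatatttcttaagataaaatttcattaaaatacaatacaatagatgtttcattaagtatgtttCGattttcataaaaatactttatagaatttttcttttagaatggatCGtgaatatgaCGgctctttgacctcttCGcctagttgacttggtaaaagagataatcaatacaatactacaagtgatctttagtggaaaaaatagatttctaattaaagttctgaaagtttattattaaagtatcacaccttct

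AT4G04293 held 6 CG pairs in this window, AT4G04223 held 11, AT4G06701 held 9 and AT4G07820 held 4. Of the 32785 windows of that length at all annotated loci, 56.7% held at least as many as AT4G04293, 17.7% as AT4G04223, 28.9% as AT4G06701 and 77.8% as AT4G07820. The median was 6 pairs over all windows and 7 over the 1015 windows of the interval. The 4 loci thus lay above, at and below the median.

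Most of the interval was silent in seedlings of every genotype. Of the 1102 members, 658 (59.7%) were listed at 0 in all 12 libraries, against 22.8% of all rows. The number on was 202 in WT, 204 in *brat1*, 204 in *nrpe1* and 201 in *brat1nrpe1*, that is 18.2% to 18.5% of the members, where 57.3% to 57.6% of all rows were on. Of the members, 197 were on in all 4 genotypes, 892 in none, and 13 in some genotypes only, patterns that were not counted over all rows. The number on therefore differed by at most 3 rows between genotypes.

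The state of a row varied more with its annotated class than with genotype. RefSeq annotates 712 of the members as pseudogenes, a class that takes in the loci that the study's lists call transposable element genes, 352 as protein coding and 23 as non-coding RNA. A further 15 were not matched to the reference, and 13 of them were listed at 0 in every library. In WT, 190 of the 352 protein-coding members (54.0%) were on, against 71.6% of protein-coding rows outside the interval. Only 7 of the 712 pseudogenes (0.983%) were on, against 3.85% of pseudogenes outside, and 545 of them (76.5%) were listed at 0 throughout, against 68.9% outside. Of the non-coding RNAs, 5 of 23 were on in WT. No test was made of these shares, because neighbouring loci are not independent.

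Because only uniquely mapped reads entered the values, a locus with near-identical copies can be listed low or at 0 while being transcribed. At least 50% of the length was matched elsewhere in the genome at 98% identity or more in 53 of the 712 pseudogenes and 4 of the 352 protein-coding members. Among pseudogenes listed at 0 throughout, it was 39 of 545 (7.16%), and 475 of them had no such copy at all. Near-identical copies were thus found in a minority of the silent pseudogenes.

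The silent rows were concentrated in the middle of the interval. Blocks AT4G06 and AT4G07, named here by the start of the locus number, held 225 and 185 rows, of which 209 and 162 were pseudogenes. In each of the 2 blocks 9 rows were on in WT (4.0% and 4.86%), and 173 and 147 rows were listed at 0 throughout. By contrast, 50 of 181 rows were on in AT4G03, 56 of 167 in AT4G04, 30 of 128 in AT4G05 and 48 of 216 in AT4G08. Between genotypes, the number on within a block moved by no more than 3 rows.

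**Figure D1:**
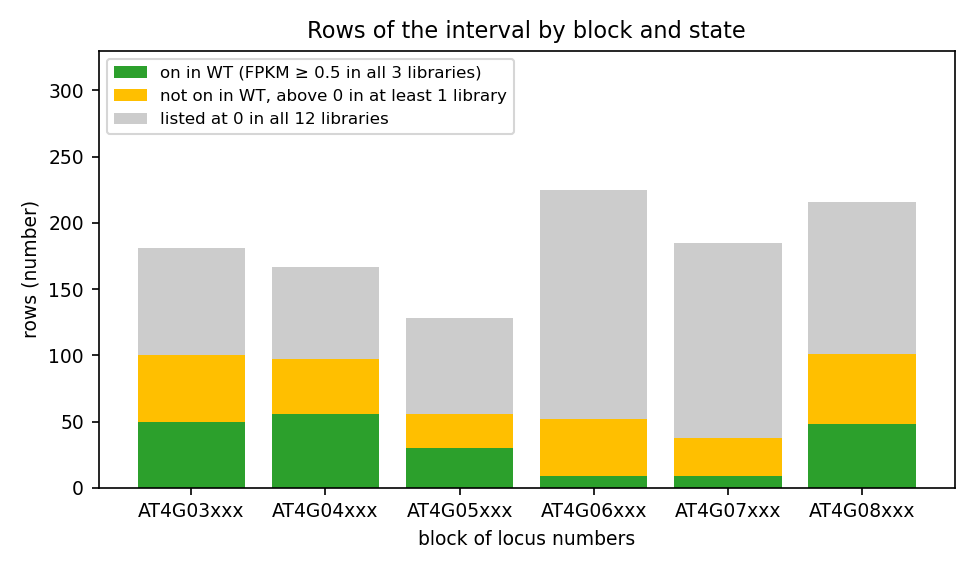
Number of rows (vertical axis) in each block of locus numbers (horizontal axis), split into rows on in WT (FPKM of at least 0.5 in all 3 libraries), rows not on but above 0 in at least 1 of 12 libraries, and rows listed at 0 in all 12. Blocks AT4G06 and AT4G07 hold 9 rows on in WT each, out of 225 and 185, and the flanking blocks hold 30 to 56.

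The loci that were on include some of the most abundant transcripts of green seedlings. The 5 highest in WT were PETC (AT4G03280), the Rieske iron-sulphur protein of the cytochrome b6f complex, the polyubiquitin gene UBQ10 (AT4G05320), ATPC1 (AT4G04640), the gamma subunit of the chloroplast ATP synthase, the polyubiquitin gene UBQ11 (AT4G05050) and the chloroplast thioredoxin gene ATHM2 (AT4G03520). UBQ10 was at 816, 930 and 922 FPKM in WT, 808, 906 and 884 in *brat1*, 853, 867 and 875 in *nrpe1*, and 849, 861 and 879 in *brat1nrpe1*. All 4 genotypes overlapped. PETC had a mean of 965 FPKM in WT, ATPC1 837, UBQ11 377 and ATHM2 279. Their log2 differences in the 3 comparisons lay between -0.08 and 0.10.

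Other well-known genes of the interval, chosen for what they encode, were read in the same way. The blue-light receptor CRY1 (AT4G08920) was at 77.7 ± 9.87 FPKM in WT (SD, n = 3), the calcium-permeable vacuolar channel TPC1 (AT4G03560) at 65.2 ± 15.1, the auxin receptor homologue GRH1 (AT4G03190) at 25.1 ± 1.12, and DDB1A (AT4G05420), an adaptor of ubiquitin ligases, at 27.0 ± 4.19. KNAT1 (AT4G08150), a homeobox gene of the shoot meristem, was at 9.72, 7.83 and 7.77 FPKM in WT, 13.4, 10.4 and 9.77 in *brat1*, 10.1, 6.33 and 6.80 in *nrpe1*, and 15.5, 10.1 and 11.2 in *brat1nrpe1*. The *brat1* libraries of KNAT1 lay above all WT libraries (difference 0.39). The double mutant and *nrpe1* overlapped, although the double mutant was higher for each replicate number. Their difference of 0.66 ± 0.219 (SE) did not pass the threshold (adjusted p = 0.79). Blocking the limma fit on replicate number gave this difference an adjusted p of 0.0032. For *brat1* against WT the blocked fit gave 0.057, and neither difference exceeded 1 in size. CRY1, TPC1, GRH1 and DDB1A differed by 0.15 or less in size in each comparison.

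The AOP cluster of glucosinolate genes lies at the start of the interval. AOP2 (AT4G03060), which carries a null allele in Columbia and is annotated as a transcribed pseudogene, was nonetheless on, at 13.6, 15.2 and 16.3 FPKM in WT, 10.4, 10.7 and 10.3 in *brat1*, 16.1, 6.96 and 8.59 in *nrpe1*, and 15.0, 13.4 and 12.7 in *brat1nrpe1*. Its *brat1* libraries lay below all WT libraries, with a log2 difference of -0.52 ± 0.248 that did not pass the threshold (adjusted p = 1.0). AOP1 (AT4G03070) was at 5.23 ± 0.888 FPKM in WT, and AOP3 (AT4G03050) was above 0 in 2 WT libraries only, at 0.0537 and 0.0393.

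Clustered gene families of the interval were followed as fixed lists. They hold 44 loci in 9 families, of which 31 were tested and 24 were on in WT. None passed the threshold in *brat1* against WT (log2 differences from -0.35 to 0.91), in *nrpe1* against WT (-0.32 to 1.01) or in *brat1nrpe1* against *nrpe1* (-0.85 to 0.47). All 4 methionine sulfoxide reductase B genes, which repair oxidized methionine, were on, from 17.3 FPKM for MSRB4 (AT4G04810) to 98.2 for MSRB5 (AT4G04830). MSRB5 gave 73.7, 112 and 109 FPKM in WT and 99.8, 151 and 154 in *brat1*, so the *brat1* libraries were higher for each replicate number while the groups overlapped. Of the calcium-dependent protein kinases, 4 of 5 were on, led by CPK21 (AT4G04720) at 27.0 FPKM, and all 3 MEKK kinases were on at 7.29 to 11.3 FPKM. Of the cysteine-rich receptor-like kinases, only CRK40 (AT4G04570) and CRK25 (AT4G05200) of 6 were on in WT. Of 8 ubiquitin and ubiquitin-like loci, 6 were listed at 0 in every library beside UBQ10 and UBQ11, and 2 of 4 extensin-like loci were at 0 as well.

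Some rows were on in mutants and not in WT. By the rule there were 8, each on in 1 or 2 genotypes, and the same count was not made over all rows. AT4G03130, a BRCT-domain gene, and AT4G05053, a pseudogene of an arginine-rich cyclin, were on in *nrpe1* only. AT4G05095, ENT6 (AT4G05110) and AT4G08210 were on in *brat1* only, the precursor of MIR447a (AT4G03445) and the sulfate transporter SULTR1;1 (AT4G08620) in both single mutants, and LpxD1 (AT4G05210) in *brat1* and *brat1nrpe1*. Some crossed the limit by little. In WT, AT4G03130 was at 0.61, 0.557 and 0.433 FPKM and AT4G08210 at 0.715, 0.556 and 0.489, so 1 library kept each from being on. SULTR1;1 was at 0.527, 0.522 and 0.431 FPKM in WT, 0.645, 0.592 and 0.931 in *brat1*, 0.855, 0.903 and 0.980 in *nrpe1*, and 0.915, 0.544 and 0.478 in *brat1nrpe1*. Libraries of both single mutants lay above all WT libraries, without passing the threshold. ENT6, a nucleoside transporter, was at 0.356 FPKM in WT replicate 1 and at 3.28 and 3.52 in the other 2, and in *brat1* replicate 1 at 0.536, so that replicate 1 alone set its state. MIR447a was at 6.34, 0 and 0 FPKM in WT, 6.60, 1.46 and 1.53 in *brat1*, 13.6, 1.66 and 1.69 in *nrpe1*, and 8.87, 0 and 0 in *brat1nrpe1*. Replicate 1 was the highest in all 4 genotypes. With the block, the precursor passed the threshold in both single mutants against WT (adjusted p = 0.21 and 0.14).

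The comparisons were made for 258 of the 1102 members, whose FPKM averaged 0.1 or more across the 12 libraries. They were 223 protein-coding, 22 pseudogene and 11 non-coding RNA rows and 2 that were not matched. For *nrpe1* against WT, the median log2 difference was -0.0004 over these members and 0.0077 over all rows tested. For *brat1* against WT it was -0.0129 and 0.0021, and for *brat1nrpe1* against *nrpe1* -0.006 and 0. In the 3 comparisons, 82.6% to 88.8% of members had a difference under 0.5 in size, where 91.8% to 92.8% of all tested rows did. The median of the tested members, most of them protein coding, was thus near 0 in each comparison. The 844 members below the filter, with most of the pseudogenes, have no part in it.

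**Figure D2:**
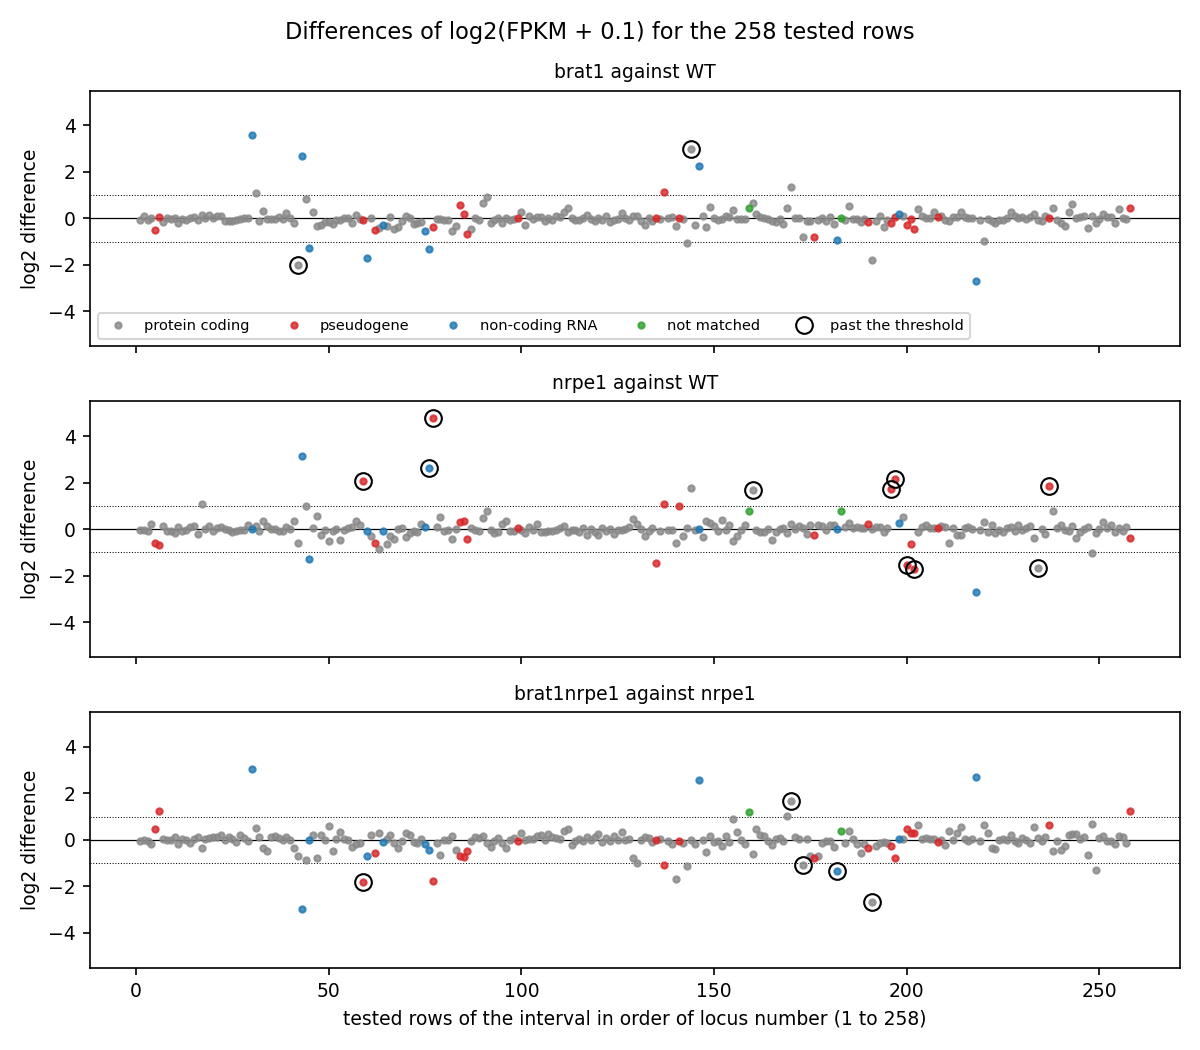
Differences of log2(FPKM + 0.1) (vertical axes) for the 258 tested members in order of locus number (horizontal axis), in 1 panel for each of 3 comparisons, with colours for the annotation and rings around rows past the threshold. Most points lie near 0, 10 rows are ringed for *nrpe1* against WT, 2 for *brat1* against WT and 5 for *brat1nrpe1* against *nrpe1*.

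The loss of NRPE1 gave the largest number of responding loci. Of the 258 tested members, 7 were higher in *nrpe1* (2.71%), where 0.477% of all tested rows were, and 3 were lower (1.16%), where 0.185% were. The higher ones were 5 pseudogenes, 1 non-coding RNA and 1 protein-coding gene. Among the 22 tested pseudogenes, 5 were higher and 2 lower, where 8.11% and 1.54% of all 456 tested pseudogene rows were. The filter averaged all 12 libraries, so rows near 0 in WT could enter through their *nrpe1* and *brat1nrpe1* values. AT4G03710, AT4G05380, AT4G08016, AT4G08020.1 and AT4G08602 averaged under 0.1 FPKM in both WT and *brat1*, and entered so. The shares of higher members are thus partly set by the filter and are a description only. After adjustment, 2 of the higher and 1 of the lower members had an adjusted p under 0.05.

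AT4G04293 showed the largest rise. It is a pseudogene of 530 bases on the plus strand (chr4:2076832-2077361) which the study's lists name as a transposable element gene, and its window is printed above. It was at 3.11, 1.31 and 0.780 FPKM in WT, 2.70, 0.504 and 1.04 in *brat1*, 70.3, 33.0 and 35.8 in *nrpe1*, and 17.8, 10.5 and 11.0 in *brat1nrpe1*. Every *nrpe1* library was above every WT library, and the double mutant lay between, overlapping neither. The mean rose 26.7-fold, from 1.74 ± 1.22 to 46.4 ± 20.8 FPKM, with a log2 difference of 4.78 ± 0.608 and an adjusted p of 0.008. Without any 1 replicate it stayed past the threshold, at 4.50 to 4.95. In *brat1* it was 0.817 times the WT mean and the groups overlapped. Between the double mutant and *nrpe1*, the log2 difference was -1.77 ± 0.608 (adjusted p = 0.85), short of the threshold. It passed with the replicate number as a block (adjusted p = 0.013), with a pseudocount of 1, without replicate 1 and with these 6 libraries alone.

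Most of the higher summed signal of the pseudogenes in *nrpe1* lay in this locus. Summed over the 712 pseudogenes, FPKM was 123 to 128 in the WT libraries and 157 to 196 in *nrpe1*. Without AT4G04293 the sums were 119 to 127 and 124 to 125. The number of pseudogenes above 0 was 71, 28 and 40 in WT, 56, 28 and 36 in *brat1*, 88, 50 and 51 in *nrpe1*, and 64, 44 and 37 in *brat1nrpe1*. It was higher in *nrpe1* than in WT for each replicate number, while the groups overlapped. All members above 0 numbered 324, 259 and 274 in WT and 338, 284 and 286 in *nrpe1*, again higher for each number. Neither count was made for rows outside the interval, so neither rise can be called particular to it.

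AT4G04223, a non-coding RNA lying 39.0 kb before AT4G04293 (chr4:2036511-2037816, plus strand), was also higher. It was at 2.31, 10.9 and 7.86 FPKM in WT, 1.46, 1.97 and 4.16 in *brat1*, 15.2, 56.5 and 57.8 in *nrpe1*, and 12.9, 40.2 and 38.7 in *brat1nrpe1*. All *nrpe1* libraries lay above all WT libraries, while replicate 1 was the lowest of the 3 in each genotype. The log2 difference was 2.63 ± 0.738 with an adjusted p of 0.62, or 0.0012 with the replicate block, and without replicate 2 or 3 it no longer passed the threshold. In *brat1* against WT, where the groups overlapped, the difference was -1.31 ± 0.738, which passed the threshold with the block (adjusted p = 0.073) and without replicate 1 (-1.65).

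The value of AT4G04223 is uncertain, because the whole locus has a copy of 99.2% identity on chromosome 3 (chr3:20852494-20853800), inside AT3G56210. That gene was at 9.77, 16.6 and 16.9 FPKM in WT and 10.0, 20.3 and 19.6 in *nrpe1*. The next rows on its left, the receptor-like protein gene RLP46 (AT4G04220) and its antisense RNA AT4G04221, ranged from 1.47 to 3.36 FPKM over all libraries. None of their comparisons of *nrpe1* with WT passed the threshold. How much of the signal came from the copy was not tested.

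AT4G03710, a pseudogene of the study's lists (chr4:1642840-1646823), was nearly silent outside *nrpe1*. It was at 0.0192 FPKM in WT replicate 1 and listed at 0 in the other 2, at 0.455, 0.283 and 0.337 in *nrpe1*, and at 0.0710, 0.0289 and 0 in *brat1nrpe1*. The *nrpe1* libraries overlapped no other genotype. The differences were 2.09 ± 0.328 for *nrpe1* against WT (adjusted p = 0.03) and -1.80 ± 0.328 for *brat1nrpe1* against *nrpe1* (adjusted p = 0.11, and 0.037 with the block). The former did not pass with a pseudocount of 1 (0.43), and the latter not without replicate 3 (-1.64) either. In *brat1*, it was at 0.00666 FPKM in replicate 1 and at 0 in the others.

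**Figure D3:**
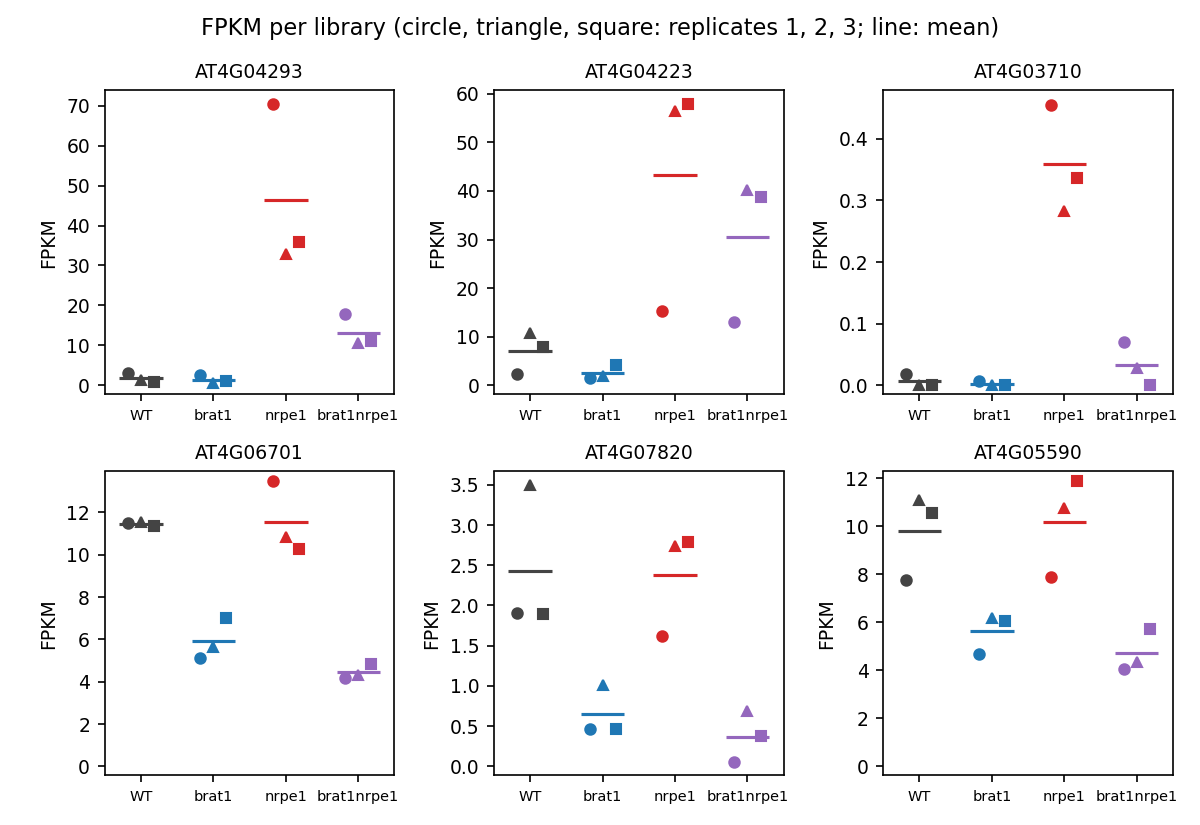
FPKM (vertical axes) in each of the 12 libraries of WT, *brat1*, *nrpe1* and *brat1nrpe1* for 6 members, with a circle, triangle and square for replicates 1, 2 and 3 and a line at the mean. AT4G04293, AT4G04223 and AT4G03710 are highest in *nrpe1*, and AT4G06701, AT4G07820 and AT4G05590 are lower in *brat1* and *brat1nrpe1* than in WT and *nrpe1*.

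A run of neighbouring pseudogenes around AT4G08000 was the next group. It holds 5 loci in 6 rows over 9.99 kb, all on the plus strand (chr4:4831118-4841107), and was singled out after its values were seen. AT4G08016 and AT4G08020.1 passed the threshold in *nrpe1* (adjusted p = 0.24 and 0.39), and the others were below the filter. AT4G08020.1 was at 0.0588, 0 and 0 FPKM in WT, 0.0735, 0 and 0 in *brat1*, 0.956, 0.261 and 0.266 in *nrpe1*, and 0.439, 0.106 and 0.144 in *brat1nrpe1*. Its *nrpe1* and double-mutant libraries lay above all WT libraries. AT4G08000 was listed at 0 in all 6 WT and *brat1* libraries, at 0.155, 0.171 and 0.0874 FPKM in *nrpe1*, and at 0.176, 0.131 and 0.142 in *brat1nrpe1*, which overlapped *nrpe1*.

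Over the 6 rows of this run, the summed FPKM was 0.288, 0 and 0 in WT, 0.0735, 0 and 0 in *brat1*, 2.92, 0.974 and 0.573 in *nrpe1*, and 1.13, 0.640 and 0.562 in *brat1nrpe1*. The number of rows above 0 was 4, 0 and 0 in WT and 6, 4 and 4 in *nrpe1*. The 4 in WT replicate 1 include AT4G08013 at only 1.29e-05 FPKM, a row of the same locus as AT4G08013.1. Replicate 1 gave the highest sum wherever the run was detected. The run ends beside AT4G07990, a DnaJ-domain gene that stood at 13.5 to 14.4 FPKM in WT and 13.6 to 15.8 in *nrpe1*, which overlapped.

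**Figure D4:**
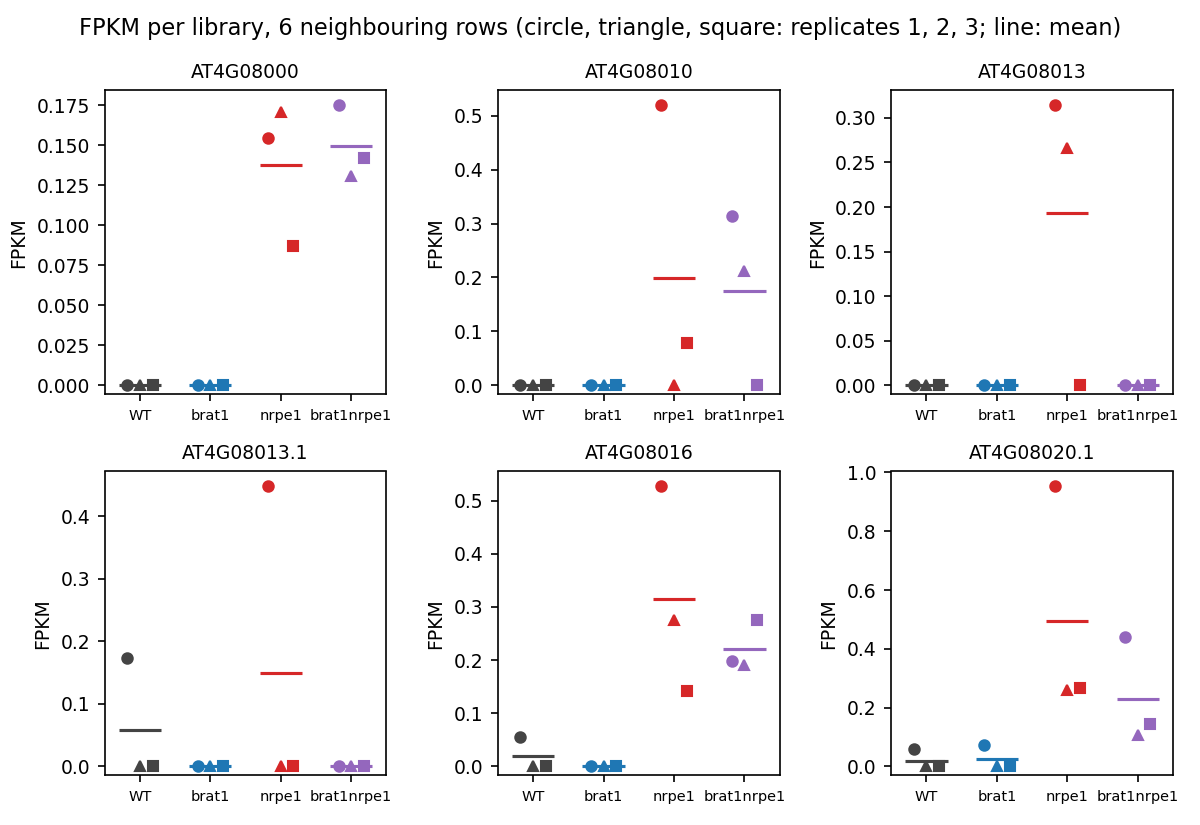
FPKM (vertical axes) in each of the 12 libraries for the 6 neighbouring rows from AT4G08000 to AT4G08020.1, with a circle, triangle and square for replicates 1, 2 and 3 and a line at the mean. Values are 0 in WT replicates 2 and 3 and in *brat1* replicates 2 and 3 for all 6 rows, and AT4G08000, AT4G08016 and AT4G08020.1 are above 0 in all 6 libraries of *nrpe1* and *brat1nrpe1*.

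AT4G08602, another pseudogene (chr4:5489259-5489974), was listed at 0 in all 6 WT and *brat1* libraries. It was at 0.368, 0.117 and 0.359 FPKM in *nrpe1* and at 0.381, 0.430 and 0.587 in *brat1nrpe1*, above the threshold for *nrpe1* against WT (adjusted p = 0.096). The protein-coding gene among the higher members was AT4G05380, which encodes a P-loop nucleoside triphosphatase. It was at 0, 0 and 0.0933 FPKM in WT and 0.149, 0.663 and 0.226 in *nrpe1*, with an adjusted p of 0.55, and it did not pass without replicate 1, 2 or 3.

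The appearance of signal from 0 was then counted over all 1102 members, as a description added after the values were seen. Listed at 0 in all WT libraries and above 0 in all *nrpe1* libraries were 7 members (0.635%), where 0.214% of all rows were: AT4G04280.1, AT4G04560.1, AT4G08000, AT4G08091, AT4G08138.1, AT4G08405 and AT4G08602. All of them are pseudogenes. Only rows at 0 in WT can show this pattern, and rows at 0 were commoner in the interval. Of the members, 59.7% were at 0 in all 12 libraries, against 22.8% of all rows, so the shares have unlike bases. The reverse pattern was found in 0 members, where 0.0410% of all rows had it. AT4G08405 lies wholly within a near-identical copy elsewhere, so its values are uncertain. AT4G04280.1, at 0.103, 0.113 and 0.0992 FPKM in *nrpe1* and 0.0133, 0.0298 and 0.0323 in *brat1nrpe1*, lies in the stretch before AT4G04293. There, AT4G04276 and AT4G04290, picked after their values were seen, were also above 0 only in *nrpe1* and *brat1nrpe1* libraries. In both genotypes this was replicate 1 alone for AT4G04276, and replicates 1 and 2 for AT4G04290.

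The same count for the other comparisons gave few members. From 0 in WT to above 0 in *brat1* there was 1 member (0.0615% of all rows), AT4G03300, at 1.76e-08 FPKM or less. From above 0 in WT to 0 in *brat1* there were 2 (0.0850% of all rows), the receptor-like kinase gene CRK39 (AT4G04540) at 0.0408 to 0.170 FPKM in WT and AT4G05475 at 0.0666 to 0.0959. From 0 in *nrpe1* to above 0 in *brat1nrpe1* there were 0 (0.0762% of all rows). From above 0 in *nrpe1* to 0 in *brat1nrpe1* there were 2 (0.0967% of all rows), both of them rows of the single locus AT4G04130. Its isoform model was at 0.103, 0.0175 and 0.0178 FPKM in *nrpe1*. The locus row was at 5.00e-07 FPKM or less there, which is in effect 0.

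A neighbouring pair of pseudogenes was lower in *nrpe1*. AT4G08115.1 and AT4G08100.1 lie 1.76 kb apart on opposite strands (chr4:5075027-5077893 and chr4:5079652-5083590). AT4G08115.1 was at 0.662, 0.387 and 0.568 FPKM in WT, 0.236, 0.468 and 0.421 in *brat1*, 0.111, 0.0893 and 0.0684 in *nrpe1*, and 0.110, 0.143 and 0.133 in *brat1nrpe1*. Both genotypes without NRPE1 lay below all 6 others. The difference for *nrpe1* against WT was -1.73 ± 0.283 (adjusted p = 0.038), and for AT4G08100.1, at 0.362 to 0.569 FPKM in WT and 0.0636 to 0.115 in *nrpe1*, it was -1.54 ± 0.293 (adjusted p = 0.1). AT4G08110, 0.335 kb after AT4G08100.1, was at 6.71, 3.72 and 3.56 FPKM in WT and 4.53, 2.53 and 2.05 in *nrpe1*, where the groups overlapped.

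AT4G08570, which encodes a protein with a heavy-metal transport domain, was the third lower member. It was at 2.56, 3.44 and 5.13 FPKM in WT, 2.52, 4.11 and 3.68 in *brat1*, 0.637, 1.68 and 1.03 in *nrpe1*, and 0.908, 1.11 and 1.41 in *brat1nrpe1*. Again the genotypes without NRPE1 lay below the other 2 with no overlap. The mean was 0.301 times that of WT, with a difference of -1.68 ± 0.355 and an adjusted p of 0.18, or 0.0044 with the block. ARGAH2 (AT4G08870), an arginase gene, was at 25.3, 82.2 and 82.5 FPKM in WT and 11.8, 42.1 and 40.8 in *nrpe1*, and its difference of -1.02 passed the threshold only with the block (adjusted p = 0.00022).

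Of the 10 members past the threshold in *nrpe1*, only AT4G04293 and AT4G03710 stayed past it without any 1 of the 3 replicates. Without replicate 2 there were 3 higher and 2 lower members (71 and 26 of all tested rows). Without replicate 3 there were 3 and 0 (77 and 23 of all tested rows).

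The loss of BRAT1 alone moved few members past the threshold. In *brat1* against WT 1 member was higher, where 0.194% of all tested rows were, and 1 lower, where 0.190% were, so both lie close to that background. None had an adjusted p under 0.05. By limma, 17 of the 258 had an unadjusted P under 0.05, a count that was not made over all rows. With the replicate number as a block, 2 were higher and 4 lower, among them the non-coding RNA AT4G03811. In that fit 78 and 61 of all 22645 tested rows were. Without replicate 2 there were 1 and 0 (14 and 22 of all tested rows). Without replicate 3 there were 0 and 1 (17 and 32 of all tested rows).

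AT4G05095, annotated as a reverse transcriptase of a non-LTR retroelement (chr4:2613798-2614214, minus strand), was the higher one. It was at 0.227, 0 and 0 FPKM in WT, 1.89, 0.777 and 0.805 in *brat1*, 0.253, 0.860 and 0.293 in *nrpe1*, and 0.802, 0.262 and 0.290 in *brat1nrpe1*. The *brat1* libraries lay above those of WT, with a difference of 2.97 ± 0.618 (adjusted p = 0.31, and 0.034 with the block), which was not past the threshold without replicate 3. Those of *nrpe1* and *brat1nrpe1* also lay above all WT libraries. For *nrpe1* against WT the difference was 1.78 ± 0.618, short of the threshold but past it with the block (adjusted p = 0.18). AT4G03443, a short gene of unknown function, was at 2.61, 6.58 and 4.47 FPKM in WT and 2.72, 0.403 and 0.837 in *brat1*. These groups overlapped, and its difference of -1.99 ± 0.572 (adjusted p = 0.94) did not pass without replicate 2 or 3.

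In the *nrpe1* background, 1 member was higher in the double mutant, where 0.159% of all tested rows were, and 4 were lower (1.55%), where 0.349% were. With the block, 1 was higher and 7 were lower, where 66 and 118 of all tested rows were. Of these 7, 5 had an adjusted p under 0.05 in that fit. Without replicate 1, 2 or 3 there were 2, 0 and 0 higher and 7, 3 and 2 lower. Of all tested rows, 100, 18 and 14 were then higher and 150, 49 and 42 lower. Of the 22 tested pseudogenes, 1 was lower and 0 higher, where 5.48% and 0.439% of all tested pseudogene rows were. The pseudogene was AT4G03710, given above, and at the other 3 lower members every *brat1* library also lay below every WT library. This comparison shares its *nrpe1* libraries with that of *nrpe1* against WT.

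AT4G06701 had the smallest adjusted p of these. It is a non-coding RNA of unknown function on the minus strand (chr4:3939266-3940797), in the block where few rows were on. It was at 11.5, 11.5 and 11.4 FPKM in WT, 5.10, 5.66 and 7.03 in *brat1*, 13.5, 10.8 and 10.3 in *nrpe1*, and 4.18, 4.33 and 4.85 in *brat1nrpe1*. All 6 libraries without BRAT1 lay below all 6 with it. The difference between the double mutant and *nrpe1* was -1.35 ± 0.137, or 0.386 of the mean (adjusted p = 0.0051), and it stayed between -1.48 and -1.19 without any 1 replicate. For *brat1* against WT it was -0.95 ± 0.137, which is within the limit of 1 in size (adjusted p = 0.084, and 0.011 with the block) and passed it without replicate 3 (-1.08).

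AT4G07820, a gene of the CAP superfamily that includes the pathogenesis-related protein PR-1, had the largest difference (chr4:4636624-4637450, minus strand). It was at 1.90, 3.49 and 1.89 FPKM in WT, 0.469, 1.02 and 0.468 in *brat1*, 1.62, 2.74 and 2.79 in *nrpe1*, and 0.0505, 0.684 and 0.374 in *brat1nrpe1*. Libraries without BRAT1 again lay below all those with it. The difference was -2.66 ± 0.564 in the *nrpe1* background (adjusted p = 0.23, and 0.005 with the block), not past the threshold without replicate 3, and -1.77 ± 0.564 in *brat1* against WT. The latter passed with the block (adjusted p = 0.054), with a pseudocount of 1 (-1.04) and with those 6 libraries alone. The gene beyond its start, AT4G07825, 6.30 kb away, was at 32.1 to 66.2 FPKM in WT and 30.8 to 60.9 in *brat1*.

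AT4G05590 encodes NRGA1, which is related to mitochondrial pyruvate carriers. It was at 7.75, 11.1 and 10.6 FPKM in WT, 4.69, 6.18 and 6.06 in *brat1*, 7.90, 10.8 and 11.9 in *nrpe1*, and 4.08, 4.35 and 5.72 in *brat1nrpe1*. Here too all libraries without BRAT1 were the lower ones. The double mutant had 0.463 of the *nrpe1* mean, with a difference of -1.09 ± 0.207 (adjusted p = 0.14, and 0.00072 with the block) that fell to -0.99 without replicate 2. For *brat1* against WT the difference was -0.78 ± 0.207 (adjusted p = 0.76, and 0.0063 with the block).

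The member that was higher in the double mutant was AT4G05497, an RNI-like gene with an F-box domain. It was at 0.150, 0.112 and 0 FPKM in *nrpe1* and 0.273, 0.615 and 0.559 in *brat1nrpe1*, with a difference of 1.68 ± 0.45 (adjusted p = 0.5), and it did not pass without replicate 2 or 3. In *brat1* it was at 0.234 to 0.315 FPKM and in WT at 0 to 0.131, which did not overlap. With the block, the precursor of MIR447a and AT4G04990, a gene of unknown function, were lower in the double mutant as well (adjusted p = 0.091 and 0.083).

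Whether BRAT1 acted alike in both backgrounds was tested as the difference between its 2 effects. It was above 1 with P under 0.01 in 0 members, where 0.102% of all tested rows were, and below -1 in 3, where 0.181% were. Of the 258, 6 had an unadjusted P under 0.05 by limma, a count that was not made over all rows. None had an adjusted p under 0.05. Without replicate 1 there were 3 and 5 (97 and 146 of all tested rows), and with the block 0 and 5 (40 and 75). Without replicate 2 or 3 there were 0 and 0 (13 and 14, and 6 and 11, of all tested rows). For the loci that were lower without BRAT1, the difference between the effects was -0.39 ± 0.194 at AT4G06701, -0.89 ± 0.798 at AT4G07820 and -0.31 ± 0.293 at AT4G05590, none past the threshold.

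The study's own lists of changed loci, which were drawn from these same libraries, name 11 loci of the interval, so their directions are not independent evidence. Beside those given above they are AT4G04280, AT4G05585, AT4G08000 and AT4G08091, all pseudogenes below the filter. AT4G05585 was at 0.00276, 0 and 0.00576 FPKM in WT, 0.317, 0.0475 and 0.0416 in *nrpe1*, and 0.0279, 0.00623 and 0 in *brat1nrpe1*. AT4G08091 was at 0.0107 FPKM in *brat1* replicate 1, at 0.0914, 0.202 and 0.0516 in *nrpe1*, and at 0.0829 in *brat1nrpe1* replicate 1, and listed at 0 elsewhere. For both loci every *nrpe1* library was above every WT library.

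The remaining pseudogenes that were on did not pass the threshold in any comparison. AT4G04692 had a mean of 80.1 FPKM in WT, AT4G08220 10.1, AT4G07507 6.42, AT4G08110 4.66 and AT4G04410 1.67. At some protein-coding members the replicates differed more than the genotypes did. RbcX1 (AT4G04330), a Rubisco chaperone, was at 157 to 182 FPKM in the 4 libraries of replicate 1 and at 1.08 to 3.47 in the other 8, in all genotypes.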

How the data were processed

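RNA of 12 seedling libraries was sequenced by the authors from poly-A RNA. Per the submitters' processing notes reads were mapped with TopHat2 2.0.12 and Bowtie to TAIR10, and the authors kept uniquely mapped reads and deposited FPKM values made with Cufflinks 2.0.1. The table holds no counts, so a linear model was used in place of a count test. Groups and replicate numbers came from the sample labels. Rows with a mean FPKM of at least 0.1 were fitted with limma 3.58.1 in R 4.3.3 on log2(FPKM + 0.1), with 4 genotype means, empirical Bayes with a trend, and Benjamini-Hochberg adjustment over all rows tested. The code was tested on simulated data. The interval, the gene lists and the named loci were chosen with earlier results of these data known. Named were all members past the threshold, those in the study's lists, those on in 1 or 2 genotypes but not WT, the 5 highest in WT and the listed families. Others were chosen after their values were seen or for what they encode.

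Libraries of the same replicate number deviated alike. Deviations from the genotype means correlated at 0.682 on average between same-numbered libraries of different genotypes (0.593 to 0.84 over 18 pairs). Between libraries of different number the average was -0.271, from -0.728 to 0.619 over 36 pairs, so the ranges overlapped. Taking deviations within each genotype in itself lowers the latter average. A fit with the replicate number as a block was made as an alternative. Positions and classes came from RefSeq TAIR10.1, which matched 1087 of the 1102 rows. Copies were sought with BLAST 2.17.0 at 98% identity over at least 100 bases.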

Additional observations from a re-analysis of the deposited data

Results flagged for a closer look

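The effect of *brat1* differed between the WT and *nrpe1* backgrounds at 3 members by the limma interaction term, all with an adjusted p of 1. At AT4G05095, the reverse transcriptase locus, the difference between the effects was -2.99. Every library of the 3 mutants was above every WT library, while *brat1nrpe1* and *nrpe1* overlapped. At the pseudogene AT4G03710 it was -1.75, where WT and *brat1* were both near 0. At AT4G03450, an ankyrin repeat gene, it was -1.68, with 0.0375, 0.178 and 0.104 FPKM in WT, 0.221, 0.309 and 0.232 in *brat1*, 0.181, 0.493 and 0.283 in *nrpe1*, and 0.164, 0.113 and 0.0921 in *brat1nrpe1*. None of the 3 passed the threshold without replicate 2 or without replicate 3.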

How the results depend on the processing

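The numbers of rows on stayed within 1.5 times the values given under every alternative, with 189 to 231 over all genotypes. Counts of members past the threshold are small and moved. In the order *brat1* against WT, *nrpe1* against WT, *brat1nrpe1* against *nrpe1* and difference between the *brat1* effects, written as higher and lower, they were 0 and 2, 2 and 1, 0 and 3, and 0 and 0 with a pseudocount of 1. With a pseudocount of 0.01 the third was 0 and 4. With no filter on low values, all 1102 members were fitted, giving 1 and 1, 10 and 3, 1 and 4, and 0 and 3. In that fit, adjusted over all rows of the table, 5 and 2 had an adjusted p under 0.05 for *nrpe1* against WT. For *brat1nrpe1* against *nrpe1* it was 0 and 2. With a mean FPKM of at least 1 the counts past the threshold were 0 and 1, 2 and 1, 0 and 3, and 0 and 0. With the filter of 0.1, an adjusted p under 0.05 left 0 and 0, 2 and 1, 0 and 1, and 0 and 0. In the blocked fit given next, the same limit left 1 and 0, 4 and 3, 0 and 5, and 0 and 0. The replicate block gave 2 and 4, 9 and 4, 1 and 7, and 0 and 5, which added AT4G05095 and the MIR447a precursor in *nrpe1* and AT4G04293 and that precursor to the last, and changed no other call than those given with each locus. Without the trend, 2 were higher in *brat1*, and with the 6 libraries compared alone 2 were higher in *brat1* and 0 in the double mutant. With replicates 2 and 3 averaged, an alternative chosen after seeing the data, they were 0 and 0, 3 and 1, 0 and 3, and 0 and 1. Leaving out 1 replicate number in turn gave 0 to 2 and 0 to 2, 3 to 8 and 0 to 4, 0 to 2 and 2 to 7, and 0 to 3 and 0 to 5. The cause of these changes was not tested. Members at 0 in WT and above 0 in *nrpe1* were 12 to 15 with 1 replicate number left out, when fewer libraries had to meet the condition. Of 20 differences past the threshold, none changed sign, and AT4G04293 in *nrpe1* and AT4G06701 in the double mutant passed under all 13 alternatives. Several alternatives, such as the block, no trend and the 6 libraries alone, can change only the P of a difference, so its sign was fixed there. Read depth, which by the study's totals was greatest for replicate 1, limits the rows listed at 0 in the other libraries. How far was not tested.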
